A study of Mus musculus with 4 samples.

Results

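The lipid uptake and storage genes described here are 10 mouse genes, taken by symbol from the 32285 genes of the deposited count tables: Cd36, Lpl, Msr1, Trem2, Fabp4, Fabp5, Plin2, Apoe, Abca1 and Abcg1. All 10 were present. Phagocytes take up fatty acids and modified lipoproteins through scavenger receptors, carry fatty acids in the cytoplasm on binding proteins, and store the surplus as neutral lipid in droplets. Cholesterol leaves the cell through ABC transporters onto apolipoproteins, a route that oxysterol-sensing nuclear receptors switch on. Lipid-laden macrophages of this kind are known from tumours, atherosclerotic plaques and adipose tissue.

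The cells were CD45+ leukocytes, isolated with antibody-coated magnetic beads from tumours of CT26, a mouse colon carcinoma line that grows in Balb/c mice, and read by droplet-based single-cell RNA sequencing (10x Genomics, 3′ end). One group received liproxstatin-1, an inhibitor of the lipid peroxidation that drives ferroptosis, over 8 days (2 libraries, liproxstatin 1 and 2), and the other was the control (2 libraries, control 1 and 2). All 4 libraries came from tumour-bearing Balb/c mice at 9 weeks of age, and no genetic change is given for either group. The labels do not state what the controls were given, or whether the libraries of a group came from separate animals or from pools, so a p-value here weighs a difference against the scatter of 2 libraries a group, and that scatter can be purely technical.

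The liproxstatin libraries held 8659 and 9299 barcodes with 168597163 and 165165389 UMIs, and the control libraries 4138 and 6996 barcodes with 83129874 and 162158147 UMIs; a UMI tags 1 captured transcript. Pairs of libraries shared 4 to 22 barcodes. After quality filters and removal of putative doublets, 25730 cells were kept, and classes were assigned by marker genes that include none of the 10 genes. Macrophages (C1qa, C1qb, Mrc1 and 5 other markers) made up 40.1% and 42.3% of the kept cells in the liproxstatin libraries, against 44.2% and 46.0% in the control libraries. Monocytes (Ly6c2, Plac8, Ccr2 and 5 others) made up 15% and 16.4% in the liproxstatin libraries, against 13.9% and 11.6% in the control libraries. Neutrophils (S100a8, S100a9, Csf3r and 5 others) numbered 558 and 364 in the liproxstatin libraries, against 92 and 420 in the control libraries. Control 1 was thus the smallest library in cells and in total UMIs, and its neutrophils the fewest. Per kept cell it was not the shallowest. The median was 16387 and 15435 UMIs in the liproxstatin libraries against 16852 and 19429 UMIs in the control libraries. Each of these 3 classes has 8 marker genes, and every one of them stood higher in its class than in the other cells. The gate left 9.59% of the cells in no class.

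Levels are given as CPM, the gene's UMIs per 1000000 UMIs of the class in that library; since the 3′ assay counts transcript ends, levels of different genes were set side by side without division by length. Over the 16 classes for which each library gave 10 cells or more, the 10 genes fell into 3 broad patterns. Apoe, Trem2, Msr1 and Abca1 were highest in macrophages, Plin2 and Abcg1 in neutrophils, and Cd36, Lpl, Fabp4 and Fabp5 in small classes of dendritic cells or fibroblasts. Macrophages, the most numerous class, held most of the UMIs of every gene, between 52.8% for Fabp4 and 92.0% for Apoe. They made up 42.8% of the kept cells and had a median of 27909.5 UMIs, against 16698 over all kept cells. These shares thus follow cell number and depth as well as level, and the lower ones are not read as enrichment.

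**Figure D1:**
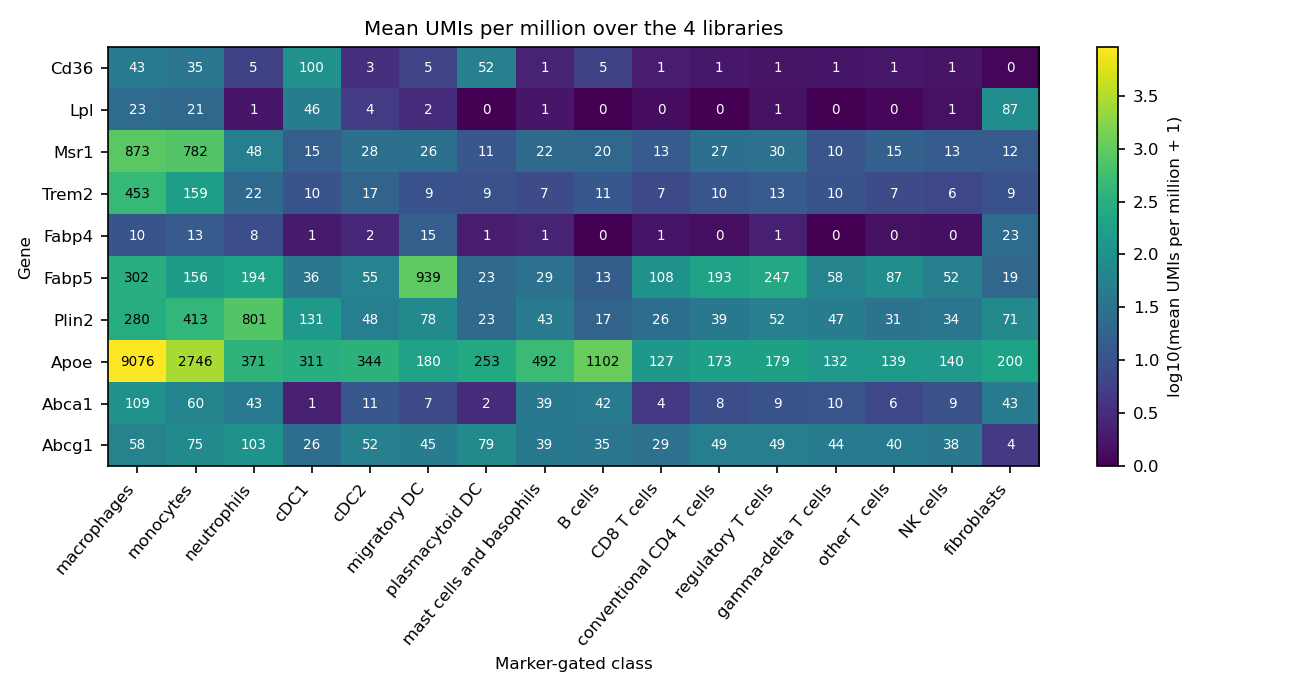
Mean CPM of each gene (rows) in each of 16 cell classes (columns) over the 4 libraries, printed in the cells and coloured on a log10 scale after adding 1. Apoe, Trem2, Msr1 and Abca1 are highest in macrophages, and Plin2 and Abcg1 in neutrophils.

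Among the uptake genes, Cd36 (chr5:17781690-17888801, minus strand, GRCm38), a scavenger receptor that also carries long-chain fatty acids, was highest in type 1 conventional dendritic cells (cDC1; Xcr1, Clec9a). Its level there was 78.8 and 91.6 CPM in the liproxstatin libraries and 100.4 and 129 CPM in the control libraries. Plasmacytoid dendritic cells followed at 52.0 ± 17.5 CPM, macrophages at 42.6 ± 13.1 CPM and monocytes at 35.3 ± 7.11 CPM (mean ± SD, n = 4 libraries). The cDC1 range did not overlap that of any other class, whereas those of plasmacytoid dendritic cells, macrophages and monocytes overlapped in turn. Every other class averaged 5.41 CPM or less.

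Msr1 (chr8:39581685-39642673, minus strand), the class A scavenger receptor for modified lipoproteins, averaged 873 ± 72.0 CPM in macrophages and 782 ± 59.4 CPM in monocytes, and these ranges overlapped. The next class, neutrophils, averaged 47.7 ± 21.1 CPM. Msr1 therefore stood almost level in macrophages and monocytes, unlike Trem2 and Apoe.

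Lpl (chr8:68880491-68907448, plus strand), the secreted lipase that frees fatty acids from lipoprotein triglyceride, averaged 87.3 ± 64.0 CPM in the 87 fibroblasts, 45.6 ± 18.2 CPM in cDC1, 23.4 ± 9.33 CPM in macrophages and 20.9 ± 5.62 CPM in monocytes, with each range overlapping the next. A class too small for this order stood far above them. In osteoclast-like cells (Ctsk, Acp5, Atp6v0d2, Ocstamp), Lpl was at 790.1 and 829.5 CPM in 23 and 18 cells of the liproxstatin libraries, against 389.8 and 1467.5 CPM in 4 and 6 cells of the control libraries. These 51 cells, 0.198% of those kept, held 13.4% of all Lpl UMIs.

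Trem2 (chr17:48346401-48354147, plus strand), a receptor that senses lipids and apolipoproteins on the surface of phagocytes, separated macrophages from monocytes. It averaged 453 ± 34.4 CPM in macrophages and 159 ± 13.9 CPM in monocytes, with no overlap, and neutrophils followed at 22.1 ± 10.6 CPM.

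The fatty acid-binding proteins differed from each other although their genes lie near each other, Fabp4 at chr3:10204088-10208576 on the minus strand and Fabp5 at chr3:10012548-10016607 on the plus strand. Fabp4, known best from adipocytes, endothelium and macrophages, was low in all 16 classes, at 23.1 ± 18.6 CPM in fibroblasts, 12.6 ± 3.57 CPM in monocytes and 9.84 ± 2.58 CPM in macrophages. Only 4 endothelial cells were found, and they held 26.1% of all Fabp4 UMIs, a share that ran from 0.545% to 52.4% between libraries. Fabp5, the epidermal-type binding protein, was highest in migratory dendritic cells (Ccr7, Fscn1), at 643 and 457 CPM in the liproxstatin libraries against 841 and 1816 CPM in the control libraries. Few cells carried that level. The 5 cells with most Fabp5 UMIs held 82.9% and 71.4% of the class's Fabp5 in the liproxstatin libraries and 91.4% and 92.2% in the control libraries. Macrophages followed at 302 ± 85.1 CPM, regulatory T cells at 247 ± 30.6 CPM and neutrophils at 194 ± 84.1 CPM, all overlapping. Among annotated transcripts, those of 5 other genes held a stretch similar to Fabp5 (identity of at least 90% over at least 200 bases), and none of the 5 is in the count tables. Lpl had 6 such matches, of which 2, Slc7a11 and Gm16349, are in the count tables, and Plin2 had 1, which is not. Reads shared with such copies may have been lost.

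Plin2 (chr4:86648386-86670060, minus strand), which coats cytoplasmic lipid droplets, was highest in neutrophils, at 767 and 558 CPM in the liproxstatin libraries against 451 and 1428 CPM in the control libraries. Monocytes averaged 413 ± 85.4 CPM and macrophages 280 ± 40.5 CPM. Neutrophils and monocytes overlapped, and monocytes lay above macrophages in all 4 libraries. To set aside depth, which was 3324.5 UMIs per neutrophil and 27909.5 UMIs per macrophage at the median, every cell was thinned to 2000 UMIs. At that depth 48.5 ± 12.1% of neutrophils, 44.9 ± 4.09% of monocytes and 36.1 ± 2.99% of macrophages had a Plin2 UMI, against 4.79 ± 1.34% of CD8 T cells; 156 of 1434 neutrophils were too shallow to enter. Without thinning the shares were 57.5% of neutrophils, 87.6% of monocytes, 90.6% of macrophages and 29.8% of CD8 T cells.

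Apoe (chr7:19696109-19699188, minus strand), the apolipoprotein that accepts cholesterol and carries it to lipoprotein receptors, was by far the most abundant of the 10, with 3198269 UMIs against 345305 for Msr1, the next. It averaged 9076 ± 1023 CPM in macrophages and 2746 ± 924 CPM in monocytes, with no overlap, and B cells followed at 1102 ± 477 CPM. Abca1 (chr4:53030787-53159895, minus strand), the transporter that loads cholesterol onto lipid-poor apolipoproteins, averaged 109 ± 10.8 CPM in macrophages and 59.7 ± 13.9 CPM in monocytes, again with no overlap. Abcg1 (chr17:31057675-31117988, plus strand), which passes cholesterol to mature high-density lipoprotein particles, was the most evenly spread. It averaged 103 ± 4.83 CPM in neutrophils, 78.6 ± 13.9 CPM in plasmacytoid dendritic cells, 75.0 ± 2.70 CPM in monocytes, 58.2 ± 6.66 CPM in macrophages and 29.3 ± 3.09 CPM in CD8 T cells.

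**Figure D2:**
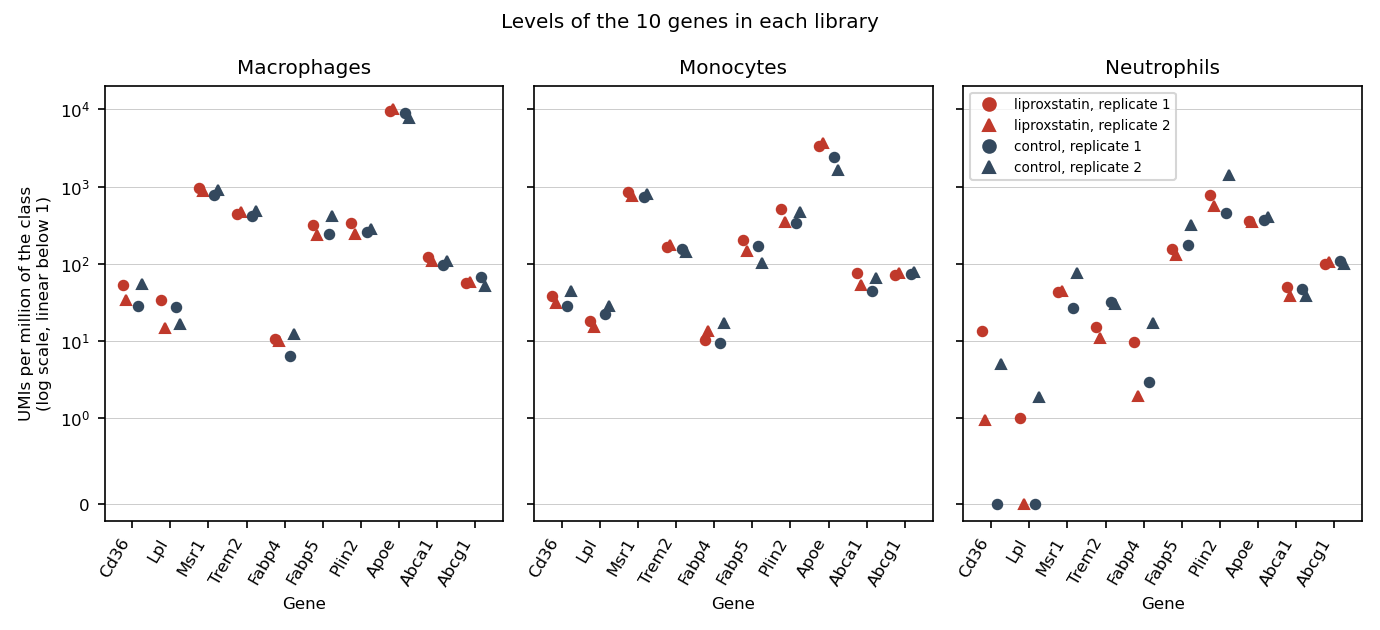
CPM (log scale) of the 10 genes in macrophages, monocytes and neutrophils, 1 point per library, with liproxstatin left of control. Apoe lies between 7679.9 and 10060.5 CPM in macrophages and between 1613 and 3645 CPM in monocytes, where the 2 liproxstatin libraries are above both controls.

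Apoe and Abca1, on the same efflux route and both highest in macrophages, have a RefSeq promoter entry (GRCm38.p6) and are printed to show what lies upstream of genes that share this pattern. Of the 10 genes, Cd36, Trem2, Plin2, Apoe and Abca1 matched an entry, and Lpl, Msr1, Fabp4, Fabp5 and Abcg1 are named only. The 250 bases before the start are given 5′ to 3′ on the gene's strand, Apoe from chr7:19699189-19699438 and Abca1 from chr4:53159896-53160145, both on the minus strand, with motif matches in capitals.
Apoe: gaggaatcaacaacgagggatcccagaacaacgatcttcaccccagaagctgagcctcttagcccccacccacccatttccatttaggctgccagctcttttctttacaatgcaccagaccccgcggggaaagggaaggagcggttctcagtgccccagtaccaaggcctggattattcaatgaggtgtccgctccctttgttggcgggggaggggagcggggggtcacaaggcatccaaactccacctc
Abca1: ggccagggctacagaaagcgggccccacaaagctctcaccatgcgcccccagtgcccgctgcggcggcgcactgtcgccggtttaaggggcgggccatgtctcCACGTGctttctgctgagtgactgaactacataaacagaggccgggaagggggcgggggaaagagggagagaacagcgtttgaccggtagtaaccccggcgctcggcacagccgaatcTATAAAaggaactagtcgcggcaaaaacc
Both strands were searched for 5 motifs: a direct repeat bound by liver X receptors (AGGTNA and NGGTCA, 4 bases apart), a nuclear receptor half-site (AGGTCA), a sterol regulatory element (TCACNCCAC), an E-box (CACGTG) and a TATA box (TATAAA). The half-site has letters in common with the direct repeat. The capitals in Abca1 mark an E-box that begins 147 bases and a TATA box that begins 29 bases before the start, and none of the 5 was matched in Apoe. Only exact matches were marked, so a stretch that differs from a motif in a single letter stays in lower case. Abca1 holds such a near match to the direct repeat, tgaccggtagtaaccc, read on the other strand and lying between the E-box and the TATA box. Other near matches occur, such as tcaccccag for the sterol element and gggtca for the half-site in Apoe. Near matches were not searched for throughout, and their share over all promoters was not counted. The half-site was matched in Cd36, Trem2 and Plin2, 228, 68 and 218 bases before the starts of their promoter entries. The start of the Cd36 entry lies 52905 bases from that of the gene as placed above, within the gene. Over 27025 promoters of this length, 6.05% held the E-box, 13.0% the TATA box, 13.8% the half-site, 1.04% the sterol element and 0.074% the direct repeat. These matches describe letters in a short window and say nothing of binding.

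RNA released from broken cells enters droplets, so low levels in lymphocytes were set against the macrophage complement genes C1qa, C1qb and C1qc, which T and NK cells lack. The 3 genes together stood at 1.14% of the macrophage level in CD8 T cells and at 1.18% in NK cells. Aif1, a macrophage gene outside the gate, stood at 2.18% and 2.03%. Of the other such genes, Ms4a4a stood higher, at 15.6% and 2.78%, and the sum of Ms4a4a, Aif1, Ctsb and Cd68 stood at 3.81% and 2.92%. Apoe stood at 1.42% and 1.55%, Msr1 at 1.53% and 1.5%, and Trem2 at 1.48% and 1.32%, close to the shares of the complement genes, and are not read as expression there. Abcg1 at 50.8% and 65.2% and Fabp5 at 38.2% and 17.6% were above all the genes used for comparison. Plin2 at 9.23% and 12.2% was above them too, except for Ms4a4a in CD8 T cells. In neutrophils the complement genes stood at 3.30% of the macrophage level, beside Apoe at 4.16%, Trem2 at 4.93% and Msr1 at 5.42%, and these levels too are not read as expression. In B cells Apoe stood at 11.9%, against 1.84% for the complement genes, and a few cells held most of its UMIs.

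For each gene, the most alike gene over the 16 class means (Pearson's r of log2(CPM + 1), 11139 genes compared, as a description) is given here with the next. Msr1 was followed by C3ar1 (r = 0.99) and Lyz2 (r = 0.97), and Trem2 by Ms4a7 (r = 0.98), itself a macrophage gate gene, and C3ar1 (r = 0.98). Apoe was most like Prxl2b (r = 0.97) and Gab1 (r = 0.92), and Cd36 like Psap and Mpeg1 (r = 0.93 for both). Plin2 was closest to Hk3 (r = 0.92) and Slc11a1 (r = 0.91), Abcg1 to Grk2 (r = 0.91) and Usb1 (r = 0.90), and Abca1 to Mindy1 (r = 0.90) and Irak3 (r = 0.83). Lpl resembled Fzd1 (r = 0.96) and Bvht (r = 0.93), Fabp4 resembled Anxa3 (r = 0.96) and Mapk3 (r = 0.95), and Fabp5 resembled Dnajc12 (r = 0.86) and Rab8b (r = 0.86). The points share libraries and free RNA.

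Within macrophages the 10 genes did not move as a block. Macrophages were ranked within each library by 4 subset scores made from other genes, and the 2752 highest-scoring cells were set beside the 2752 lowest-scoring ones, as a description without a test. By the hypoxic score (Ndrg1, Adm, Slc2a1, Mt1, Bnip3), Fabp5 averaged 605 ± 182 CPM in the highest-scoring cells and 119.5 ± 37.9 CPM in the lowest (n = 4 libraries), a mean log2 ratio of 2.33 with a range of 2.24 to 2.49. In the highest-scoring and then the lowest-scoring cells, Plin2 averaged 415 ± 77.7 and 204 ± 25.1 CPM, Abca1 182 ± 26.6 and 73.0 ± 6.49 CPM, and Cd36 67.5 ± 20.5 and 26.9 ± 10.2 CPM, each higher in the high-scoring cells in 4 of 4 libraries. Lpl went the other way, at 13.9 ± 5.68 CPM in the highest-scoring and 33.6 ± 16.3 CPM in the lowest-scoring cells, and was lower in the high-scoring cells in all 4 libraries. Of the other efflux genes, Abcg1 averaged 62.3 ± 2.58 CPM in the highest-scoring and 64.3 ± 11.1 CPM in the lowest-scoring cells, and Apoe 8332 ± 1375 and 9866 ± 957 CPM, higher in the high-scoring cells in 1 of 4 libraries.

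By the MHC class II score (H2-Aa, H2-Ab1, H2-Eb1, Cd74), Apoe averaged 12789.5 ± 1389 CPM in the highest-scoring cells and 7061 ± 1058 CPM in the lowest, higher in 4 of 4 libraries. Cd36 at 22.7 ± 5.82 and 65.7 ± 22.8 CPM, Plin2 at 197 ± 26.3 and 346 ± 62.2 CPM, Fabp5 at 222 ± 48.4 and 408 ± 119.9 CPM and Abca1 at 77.3 ± 14.2 and 129 ± 13.9 CPM were lower in the highest-scoring cells in all 4 libraries. By the Mrc1 Folr2 score (with Gas6 and Stab1), Abca1 averaged 169 ± 9.98 CPM in the highest-scoring cells and 48.9 ± 14.7 CPM in the lowest, and Apoe 11243 ± 1297 and 6749 ± 1252 CPM. By the cycling score (Mki67, Top2a, Stmn1, Cdk1), Apoe was at 6284 ± 631 CPM in the highest-scoring cells and 11849.9 ± 1512 CPM in the lowest, and Abca1 at 70.8 ± 4.41 and 140.2 ± 15.3 CPM. The highest-scoring cells of the cycling score had a median of 37191 UMIs per cell, against 21754.5 in the lowest-scoring ones, and those of the Mrc1 Folr2 score 32843.5 against 22206; the part of these differences in the levels was not tested. Cell by cell at 10000 UMIs, the 45 pairs of the 10 genes correlated weakly within a library, with a highest mean r of 0.23 for Fabp5 and Plin2.

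**Figure D3:**
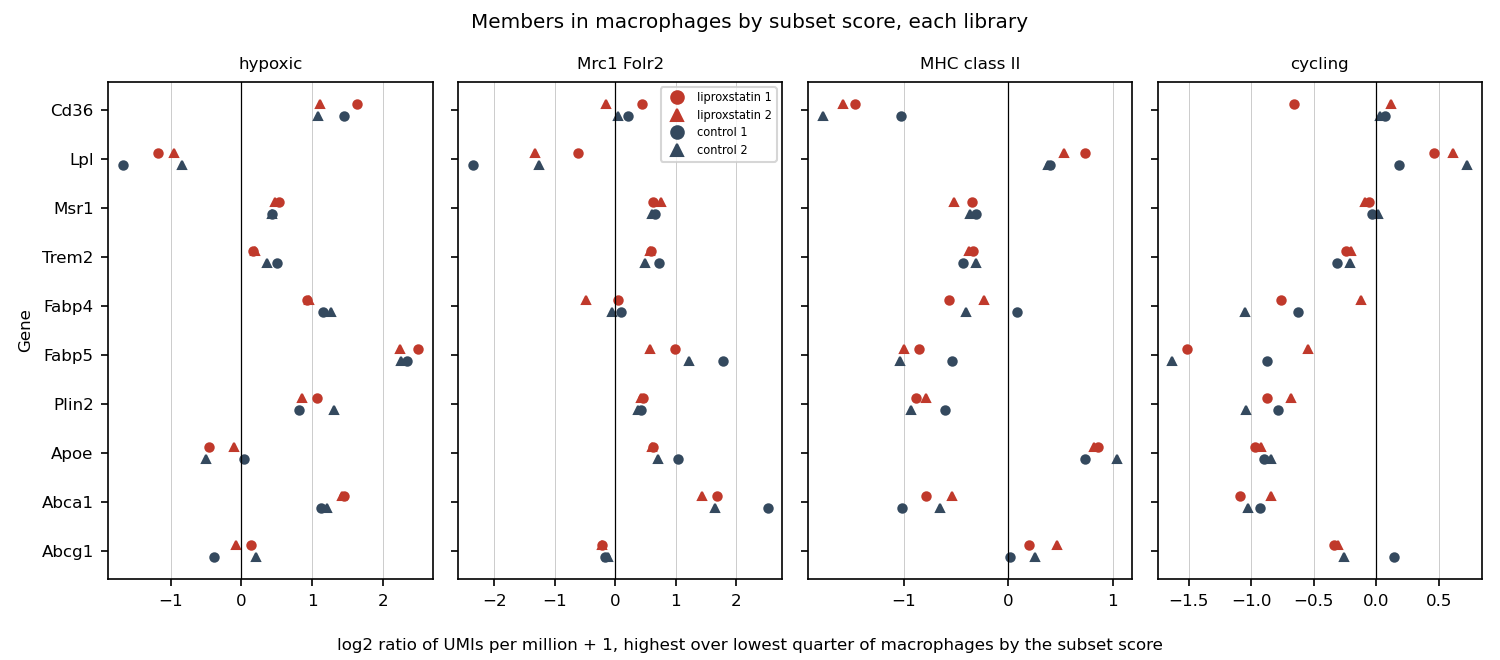
Log2 ratio of CPM plus 1 between the highest-scoring and lowest-scoring macrophages by 4 subset scores (panels), for each gene (rows) and library (points, liproxstatin above control within a row). Fabp5 lies between 2.24 and 2.49 by the hypoxic score in the 4 libraries, and Lpl is below 0 in all 4.

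The treatment was tested in 6 classes on UMIs summed per class and library, with edgeR's quasi-likelihood test over all genes that passed its filter on low counts and Benjamini-Hochberg adjustment. A gene is called at an adjusted p under 0.05, and fold changes are log2 of liproxstatin over control with their standard error (SE). None of the 10 genes was called in any of the 6 classes. Where 1 library is left out below, its group has 1 library, which is assumed to vary like the other group. A gene's own spread then comes from the remaining pair, and edgeR moderates it over all genes. A call made there is weaker evidence than the fit of all 4. Levels are shares of the RNA of a class, so a change in the number of its cells does not enter them.

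In macrophages all 10 genes were tested, 0 were called and 2, Apoe and Abca1, had an unadjusted p under 0.05, beside 15.9% of all genes; DESeq2 also called 0. Of all 14349 genes tested there, 2.28% were called. Apoe was at 9540.2 and 10060.5 CPM in the liproxstatin libraries and at 9024 and 7679.9 CPM in the control libraries. Both liproxstatin libraries were above both controls, by a log2 fold change of 0.27 ± 0.12 (SE; edgeR adjusted p = 0.298). Apoe was the only one of the 10 with groups that did not overlap, whereas 16.6% of all genes were higher in both liproxstatin libraries and 30.5% lower. Overlap is read on CPM here and below, without the scaling between libraries used in the fits. In the fit, 49.4% of all genes had a positive log2 fold change. The macrophage clusters were not filled alike in the groups. The cluster led by Apoe, C1qa and C1qc held 19.2% and 15.8% of the liproxstatin macrophages against 9.35% and 2.33% of the control macrophages. Within it Apoe was at 11818 and 12754 CPM in the liproxstatin libraries against 11580 and 9333 CPM in the control libraries. Apoe was highest, however, in the cluster led by Ccl8, C1qa and Wfdc17, whose shares went the other way. That cluster held 8.88% and 10.0% of the liproxstatin macrophages against 11.9% and 14.9% of the control macrophages. Of 9 clusters with 100 gated macrophages or more, both liproxstatin libraries were above both controls for Apoe in 5, and the part of the cluster shares in the class values was not tested. Abca1 was at 122 and 108 CPM in the liproxstatin libraries against 95.5 and 108 CPM in the control libraries (0.22 ± 0.09, edgeR adjusted p = 0.253), and the groups overlapped. Msr1 was at 954 and 869.7 CPM in the liproxstatin libraries against 779 and 889 CPM in the control libraries (0.17 ± 0.10).

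The other 7 genes of macrophages lay between a log2 fold change of -0.23 ± 0.38 for Fabp5 and 0.19 ± 0.66 for Lpl, with overlapping groups. Fabp5 was at 313 and 234 CPM in the liproxstatin libraries against 242 and 418 CPM in the control libraries, and Plin2 at 336 and 244 CPM in the liproxstatin libraries against 257 and 284 CPM in the control libraries. Trem2 was at 435 and 474 CPM in the liproxstatin libraries against 415 and 489 CPM in the control libraries (0.05 ± 0.10). The median over the 10 genes was 0.14, beside -0.0035 over all genes tested. Single libraries decided several of these values. Without control 2, Cd36 had a log2 fold change of 0.64 (edgeR adjusted p = 6.41e-04) and Fabp4 of 0.72 (adjusted p = 1.43e-04); without control 1, Fabp5 had one of -0.56 (adjusted p = 3.62e-04).

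In monocytes all 10 genes were tested and 0 were called, beside 0.0344% of 11631 genes; 3 had an unadjusted p under 0.05, beside 7.32% of all genes, and DESeq2 called 1, Apoe. Apoe was at 3334 and 3645 CPM in the liproxstatin libraries and at 2394 and 1613 CPM in the control libraries. Both liproxstatin libraries were above both controls, by a log2 fold change of 0.87 ± 0.21 (edgeR adjusted p = 0.485). With a library left out, the estimate ran from 0.60 without control 2 (adjusted p = 0.0045) to 1.21 without control 1 (adjusted p = 3.12e-07). Trem2 was at 163 and 175 CPM in the liproxstatin libraries against 154 and 143 CPM in the control libraries (0.27 ± 0.11, edgeR adjusted p = 0.657), also without overlap. Lpl was at 18.1 and 15.1 CPM in the liproxstatin libraries against 22.5 and 28.0 CPM in the control libraries (-0.53 ± 0.15, edgeR adjusted p = 0.485), lower in both, and was called without control 1 (-0.65, adjusted p = 0.0354). Among all genes 11.0% were higher in both liproxstatin libraries of monocytes and 29.2% lower by CPM, while 49.5% had a positive log2 fold change in the fit.

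The remaining monocyte genes had overlapping groups. Plin2 was at 504 and 345 CPM in the liproxstatin libraries against 336 and 468 CPM in the control libraries (0.16), and Msr1 at 858 and 748 CPM in the liproxstatin libraries against 724 and 797 CPM in the control libraries (0.16). Fabp5 was at 204 and 146 CPM in the liproxstatin libraries against 169.7 and 103 CPM in the control libraries (0.44 ± 0.34). The median over the 10 genes in monocytes was 0.16, beside -0.0026 over all genes.

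**Figure D4:**
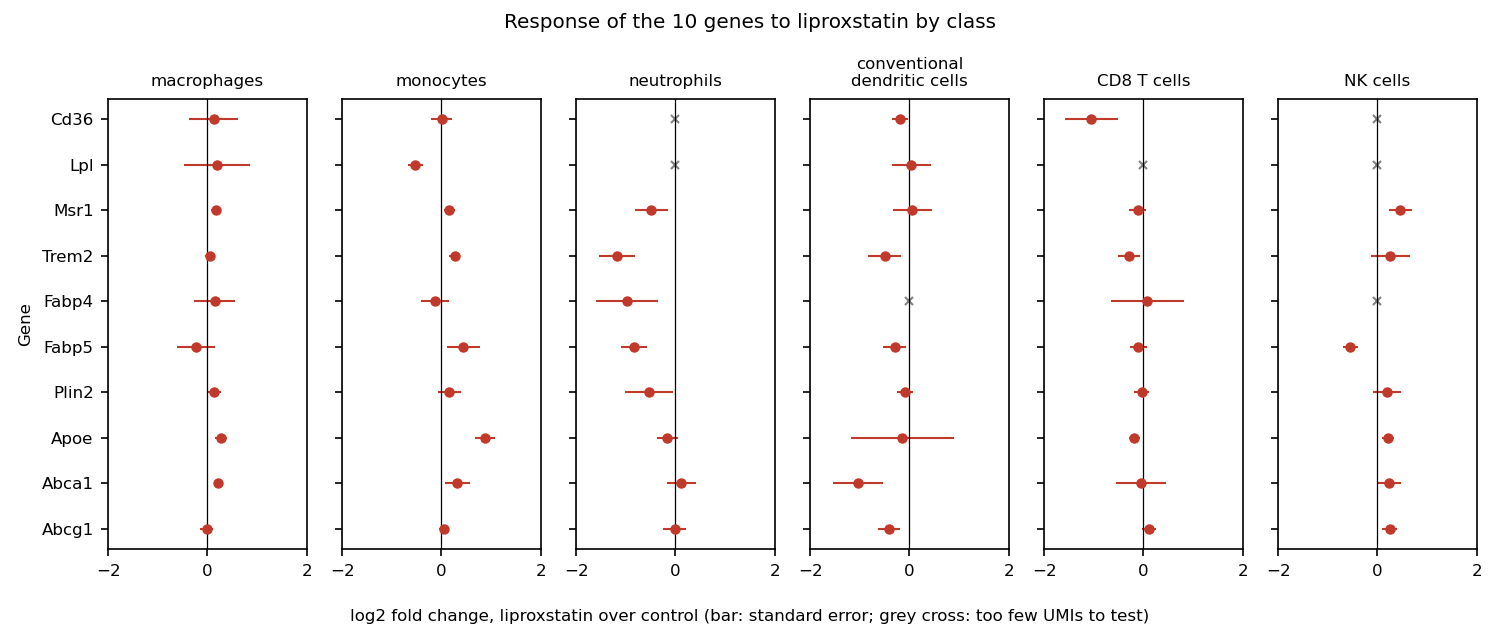
Log2 fold change, liproxstatin over control, with its standard error for each of the 10 genes in 6 classes; grey crosses mark genes with too few UMIs to test. Apoe in monocytes stands at 0.87 and Trem2 in neutrophils, where its level is not read as expression, at -1.17, and none of the points was called.

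The Apoe difference was larger in monocytes than in macrophages. Fitted in 1 model over both classes, with the library as a block, the log2 fold change of Apoe was higher in monocytes by 0.64 ± 0.11 (edgeR adjusted p = 0.0433). It was the 1 of the 10 genes called in this comparison, where 0.162% of 13596 genes were called. The call was lost without control 2 (0.49, adjusted p = 0.0678), without liproxstatin 1 (0.66, adjusted p = 0.0573) and with classes taken from clusters (0.29, adjusted p = 0.38).

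Apoe also rises with the macrophage marker score that divides the classes, so its level was read along that score over monocytes and macrophages together. In cells with a score under 0.5, Apoe was at 1668 and 1660.4 CPM in the liproxstatin libraries against 829 and 750.2 CPM in the control libraries. From 0.5 to 1 it was at 2958 and 3291 CPM in the liproxstatin libraries against 1935 and 1145 CPM in the control libraries, and over 2.5 at 11979 and 12302 CPM in the liproxstatin libraries against 10954 and 9295 CPM in the control libraries. In all 6 ranges both liproxstatin libraries were above both controls, and the ratio of the liproxstatin mean to the control mean was 2.11 at the lowest scores and 1.2 at the highest, although the gap in CPM was widest at the highest. The 8 macrophage markers summed to 2839.7 and 3009 CPM in monocytes of the liproxstatin libraries against 2414 and 2588 CPM in those of the control libraries, and their part in the Apoe difference was not tested.

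The clusters named as monocytes, 4 in all, held most of the gated cells. In the cluster led by Cd74, Lyz2 and Ccr2, Apoe was at 4498 and 4411 CPM in the liproxstatin libraries against 2983 and 1822 CPM in the control libraries. In the cluster led by Plac8, Il1b and Cebpb it was at 2366 and 2018 CPM in the liproxstatin libraries against 1187 and 968 CPM in the control libraries. In interferon-response monocytes (Isg15, Rsad2) it was at 4576 and 5188 CPM in the liproxstatin libraries against 2875 and 2712 CPM in the control libraries. These groups did not overlap, while in the cluster led by Cxcl2, Thbs1 and Ier3 they did, at 1172 and 1058 CPM in the liproxstatin libraries against 1156 and 802 CPM in the control libraries. The first of these clusters held 36.2% and 43.9% of the liproxstatin monocytes against 44.6% and 40.5% of the control monocytes, and the last 15.4% and 9.76% of the liproxstatin monocytes against 5.54% and 16.1% of the control monocytes.

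**Figure D5:**
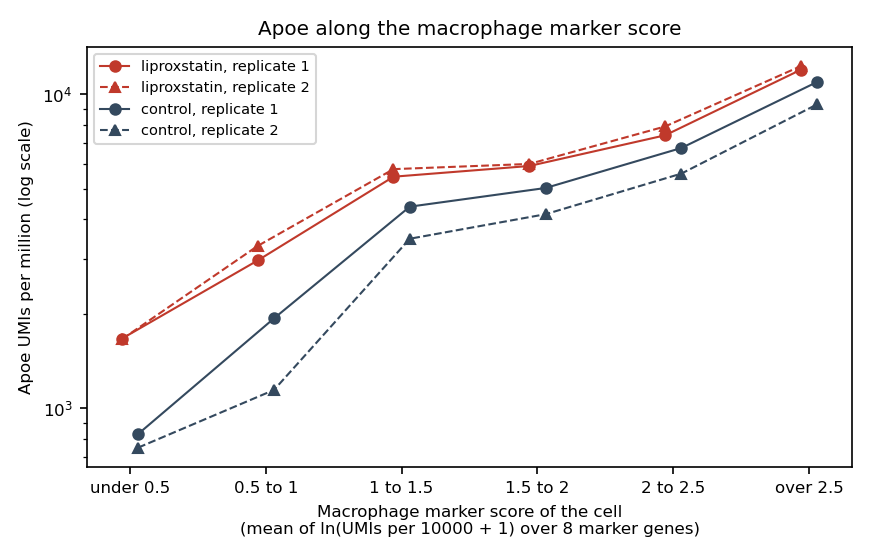
Apoe CPM (log scale) in monocytes and macrophages by range of the macrophage marker score, 1 line per library. Both liproxstatin libraries lie above both controls in all 6 ranges, with 1668 and 1660.4 CPM in the liproxstatin libraries against 829 and 750.2 CPM in the control libraries at the lowest score.

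In neutrophils 8 genes were tested, without Cd36 and Lpl; edgeR called 0 and DESeq2 0, and 2 had an unadjusted p under 0.05, beside 8.78% of all genes at that p and 0.106% called of 5683. Fabp5 was at 155 and 131 CPM in the liproxstatin libraries against 173 and 318 CPM in the control libraries, lower in both (-0.83 ± 0.26, edgeR adjusted p = 0.321). Trem2 was at 15.3 and 10.8 CPM in the liproxstatin libraries against 32.2 and 30.0 CPM in the control libraries (-1.17 ± 0.36, edgeR adjusted p = 0.302). Beside it, the complement genes in neutrophils stood at 3.11% and 2.69% of the macrophage level in the liproxstatin libraries against 3.32% and 4.10% in the control libraries, and their part in the Trem2 and Apoe values was not tested. Apoe, at 358 and 346 CPM in the liproxstatin libraries against 372 and 408 CPM in the control libraries, was the third gene without overlap, all 3 lower; 17.0% of all genes were lower in both liproxstatin libraries.

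Plin2, the gene for which neutrophils stood highest, had a log2 fold change of -0.53 ± 0.49 there and rested on 1 library. Control 2 was at 1428 CPM, above both liproxstatin libraries (767 and 558 CPM), and control 1, with 92 neutrophils, at 451 CPM was below both. Without control 1, Plin2 was at -1.06 (edgeR adjusted p = 5.90e-05) and Fabp5 at -1.09 (adjusted p = 3.70e-05); without control 2, Plin2 was at 0.56. Abcg1 at 98.7 and 105 CPM in the liproxstatin libraries against 108 and 98.7 CPM in the control libraries was close to level (-0.02). The median over the 8 genes was -0.51, beside -0.0144 over all genes. Set against macrophages in 1 model, edgeR called 0 of the 10 genes for a different response in neutrophils, beside 0.0224% of 13415 genes, and DESeq2 0; only Trem2 had an unadjusted p under 0.05.

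Conventional dendritic cells, CD8 T cells and NK cells had 9, 9 and 7 of the genes tested, and edgeR called 0 in each, beside 0.244% of 9031, 1.01% of 11566 and 0.00962% of 10390 genes; DESeq2 called 0 in each. An unadjusted p under 0.05 was found for 0, 0 and 1 of them. That 1 was Fabp5 in NK cells, at 41.9 and 42.0 CPM in the liproxstatin libraries against 54.5 and 69.1 CPM in the control libraries (-0.55 ± 0.15, edgeR adjusted p = 0.493). Abca1, Trem2 and Abcg1 in dendritic cells and Cd36 and Apoe in CD8 T cells were lower in both liproxstatin libraries, beside 23.6% and 21.6% of all genes. Several of these levels were near free RNA. In cDC1, Trem2 stood at 2.15% and Abca1 at 1.14% of the macrophage level, beside 2.09% for the complement genes. In type 2 dendritic cells they stood at 3.77% and 10.3%, beside 1.78%. Cd36 in CD8 T cells averaged 1.05 CPM, and Apoe there is not read as expression. Abca1 and Abcg1 in NK cells were higher in both, beside 15.5%, and Fabp5 lower, beside 19.5%.

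Beyond the 10, 102 other genes of lipid handling were listed in 8 groups, from lipoprotein receptors to fatty acid oxidation. In macrophages 97 of them were tested, 3 rose and 0 fell, where 1.38% of all genes rose; 21 of the 97 had an unadjusted p under 0.05, beside 15.9% of all genes, and DESeq2 called 6. Among the 3 was Axl, a receptor for the clearance of dying cells. Axl was at 53.7 and 55.5 CPM in the liproxstatin libraries against 44.6 and 39.6 CPM in the control libraries (0.42 ± 0.09, edgeR adjusted p = 0.0318). Both liproxstatin libraries were above both controls. The median over the 97 was 0.04, beside -0.0035 over all genes.

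Axl was not called without liproxstatin 1 (edgeR adjusted p = 0.127), without liproxstatin 2 (adjusted p = 0.129) or without control 2 (adjusted p = 0.193), and without control 1 a total of 13 of the listed genes were called. Hilpda, which holds back lipolysis at the droplet under hypoxia, missed the threshold in macrophages at 149 and 115 CPM in the liproxstatin libraries against 93.5 and 102 CPM in the control libraries (0.47 ± 0.11, edgeR adjusted p = 0.0529). In monocytes 92 of the listed genes were tested and in neutrophils 57, and edgeR and DESeq2 called 0 in both, with 7 and 9 at an unadjusted p under 0.05 by edgeR, beside 7.32% and 8.78% of all genes. Neutrophil Hilpda, next to Plin2 on droplets, was at 946 and 783 CPM in the liproxstatin libraries against 1392 and 2015.5 CPM in the control libraries (-0.99 ± 0.24, edgeR adjusted p = 0.167).

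After these levels had been seen, 4 further classes were fitted. In conventional CD4 T cells Fabp5 was at 277 and 323 CPM in the liproxstatin libraries against 76.1 and 95.5 CPM in the control libraries. Its log2 fold change of 1.71 ± 0.26 (edgeR adjusted p = 0.0135) made it the 1 gene called of 5 tested, beside 0.129% called and 22.3% higher in both liproxstatin libraries of 5419 genes. Few cells carried it. There were 103 and 222 Fabp5 UMIs in 17 and 31 cells of the liproxstatin libraries against 21 and 61 UMIs in 6 and 28 cells of the control libraries. The share of cells with a Fabp5 UMI was 33.3% and 33.0% in the liproxstatin libraries against 17.1% and 35.9% in the control libraries, and these overlapped. The 5 highest cells held 84.5% and 73.4% of these UMIs in the liproxstatin libraries against 95.2% and 49.2% in the control libraries. Without liproxstatin 1 the estimate was 1.82 with an adjusted p of 0.0998. The 4 cycling markers summed to 102 and 685 CPM in the liproxstatin libraries against 555 and 678 CPM in the control libraries, and 2 of 5 migratory dendritic cell markers had a UMI; their part in the Fabp5 value was not tested.

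In B cells, where Apoe stood above the free-RNA share, it was at 1225 and 1722 CPM in the liproxstatin libraries against 790.3 and 671 CPM in the control libraries (1.07 ± 0.22, edgeR adjusted p = 0.105). A few cells held most of it. The 5 highest cells held 80.4% and 60.8% of the Apoe UMIs of 21 and 34 cells in the liproxstatin libraries. In the control libraries they held 81.8% and 61.5% of those of 20 and 36 cells. Apoe was the only gene of the 10 with enough UMIs to test in the 111 B cells, beside 0.0858% called and 16.6% higher in both liproxstatin libraries of 2331 genes. It was called without control 1 (1.2, adjusted p = 0.0016) and without liproxstatin 1 (1.33, adjusted p = 2.22e-04). In mast cells and basophils Apoe was at 554 and 623 CPM in the liproxstatin libraries against 371 and 421 CPM in the control libraries (0.69, edgeR adjusted p = 0.174). Apoe and Msr1 were higher there in both liproxstatin libraries, beside 12.1% of genes, and 0 of 5 were called, beside 0.539%. Apoe in these cells stood at 5.4% of the macrophage level. Beside it, the complement genes stood at 1.28% and the sum of Ms4a4a, Aif1, Ctsb and Cd68 at 3.52%. Msr1 there lay above the complement genes but below that sum, and is not read as expression. In regulatory T cells edgeR called 0 of 7, beside 0.142%, and Trem2 and Msr1, at levels near free RNA, were lower in both, beside 17.2%. Both liproxstatin libraries were thus above both controls for Apoe in macrophages, monocytes, B cells and mast cells. They were below both in neutrophils and CD8 T cells, where its level is near that of free RNA and is not read as expression. The Apoe share of mast cells was little above the 4.16% of neutrophils, and the part of free RNA in the mast cell difference was not tested.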

How the data were processed

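Cells were isolated with CD45 beads and libraries built with a 10x Genomics 3′ protocol, per the labels' protocols. The deposited values are whole-number UMI counts per gene and barcode; per the file headers they were written by Cell Ranger 6.1.1, while Cell Ranger 4 and the mm10 build stand in the submitters' processing notes. No other step is given in the sources used here. The 10 genes, the gene lists and the tests were chosen with earlier results of these data known.

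Cells with at least 200 genes and under 15% mitochondrial UMIs were kept (27447 of 29092 barcodes). Scrublet, in scanpy 1.11.5 under Python 3.11.15, called 142 and 208 doublets in the liproxstatin libraries and 1 and 5 in the control libraries by its own threshold, so the highest-scoring cells were removed instead at 0.8% per 1000 barcodes (6.93%, 7.44%, 3.30% and 5.59% of cells). Classes came from marker scores whose cuts were set after the score distributions, but not the 10 genes, had been seen; 522 of 14738 monocytes and macrophages lay within 10% of the cut between them. Leiden clusters (igraph 0.11.9), built without the 10 genes, agreed for 86.5% of macrophages, 91.5% of monocytes, 98.5% of neutrophils, 59.8% of conventional dendritic cells, 91.4% of CD8 T cells and 98.0% of NK cells.

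UMIs were summed per class and library and tested with edgeR 4.0.16 (R 4.3.3, limma 3.58.1; TMM scaling, treatment as the only term), and with DESeq2 1.42.0 as an alternative. The SE is the log2 fold change divided by the root of edgeR's F statistic. The difference between classes was an interaction with the library as a block. The deviations from the group means of libraries with the same replicate number had a correlation over genes of -0.05 to 0.14, so the numbers were not taken as pairs. The steps were tested on simulated counts. Intervals between libraries do not separate animal from technical variation, and depth limits the small classes.

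Named genes were all 10 members of the set; of the other lists, those past the threshold in a class or otherwise the 2 per list with the largest change among genes of at least 50 CPM; and the 2 most alike genes by class means. Some genes that the rule names are not reported here. Coordinates are GRCm38 (GENCODE M21, which held 32158 of the 32285 gene IDs). Similar copies were sought among its annotated transcripts with BLAST 2.17.0. Alternatives were other scalings, filters, gates, doublet treatment, cell numbers, thinning, a replicate block and each library left out.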

Additional observations from a re-analysis of the deposited data

Results flagged for a closer look

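The response of Apoe to liproxstatin differed between 2 cell classes by the test of the difference itself. The log2 fold change in monocytes exceeded that in macrophages by 0.64 ± 0.11 (SE; edgeR adjusted p = 0.0433), with 3334 and 3645 CPM in the liproxstatin libraries against 2394 and 1613 CPM in the control libraries of monocytes, and 9540.2 and 10060.5 CPM in the liproxstatin libraries against 9024 and 7679.9 CPM in the control libraries of macrophages. Over the alternatives run, the adjusted p lay between 4.86e-11 and 0.38.

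Of the other lipid genes, Cd163, a scavenger receptor of resident-type macrophages, also differed between these classes. Its log2 fold change was lower in monocytes by a difference of -1.95 ± 0.21 (edgeR adjusted p = 0.00367). Monocytes held 1.84 and 1.73 CPM in the liproxstatin libraries against 7.07 and 5.61 CPM in the control libraries, and macrophages 54.0 and 43.0 CPM in the liproxstatin libraries against 53.6 and 34.1 CPM in the control libraries. At these low monocyte levels the call was lost with classes from clusters (-0.51), with the stricter gate (-1.01) and after thinning (-1.04). Groups of 2 libraries are too small for a search for outlying libraries.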

How the results depend on the processing

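Among the 10 genes, DESeq2 called 1 in monocytes and the fit without the filter on low counts 2, against 0; classes from clusters left 0 rather than 1 for the difference between monocytes and macrophages. The other lipid genes called in macrophages, 3 in the fit reported, were 6 with DESeq2, 12 without the filter, 6 with the stricter gate and 1 after thinning. In the remaining classes, where 0 were called, the fit without the filter called 3 in monocytes, 1 in neutrophils, 1 in dendritic cells and 3 in CD8 T cells, equal cell numbers called 1 in monocytes, and doublets kept, the stricter gate and thinning each called 1 in CD8 T cells. The cause of each change was not tested. DESeq2 put the median of all genes at -0.12 for neutrophils minus macrophages, beside -0.0003.

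Leaving out 1 library each, the members called ran from 0 to 2 in macrophages, monocytes and neutrophils, 0 to 1 in NK cells, 0 to 3 for monocytes minus macrophages and 0 to 1 for neutrophils minus macrophages. The other lipid genes ran from 0 to 13 in macrophages, 0 to 7 in monocytes and neutrophils, 0 to 1 in dendritic cells, 0 to 6 in CD8 T cells and 0 to 3 in NK cells.

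The replicate number as a replicate block changed no call among the 10 genes, with Apoe in monocytes at 0.90 (edgeR adjusted p = 0.423). It took the other lipid genes called in macrophages to 2, losing Axl (adjusted p = 0.0587), and called 1 in neutrophils, 1 in dendritic cells and 3 in CD8 T cells. Apoe in dendritic cells was 0.0025 under the replicate block, against -0.14. The labels do not tie equal numbers to a shared day or litter.

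Of the alternatives to a member's fold change other than leaving out a library, 428 kept direction and side of the threshold and 32 turned the sign, all of estimates that were not called. With equal numbers of cells per library, Lpl in macrophages was -0.0049, Cd36 in monocytes was -0.21, Fabp4 in monocytes was 0.20, Msr1 in neutrophils was 0.22, Abcg1 in neutrophils was 0.23, Apoe in dendritic cells was 0.11, Plin2 in CD8 T cells was 0.0044. With the stricter gate, Abcg1 in macrophages was 0.0019, Cd36 in monocytes was -0.19, Abcg1 in monocytes was -0.07, Abcg1 in neutrophils was 0.06, Msr1 in dendritic cells was -0.43, Msr1 in NK cells was -0.03, Trem2 in NK cells was -0.36, Apoe in NK cells was -0.05. After thinning, Cd36 in monocytes was -0.06, Cd36 in dendritic cells was 0.68, Apoe in CD8 T cells was 0.02, Apoe in NK cells was -0.27. With classes from clusters, Fabp4 in monocytes was 0.04, Msr1 in dendritic cells was -1.05, Fabp4 in CD8 T cells was -0.26, Apoe in NK cells was -0.07. With doublets kept, Abcg1 in neutrophils was 0.04, Lpl in dendritic cells was -0.03, Msr1 in CD8 T cells was 0.14, Fabp4 in CD8 T cells was -0.03, Plin2 in CD8 T cells was 0.16, Apoe in CD8 T cells was 0.12, Abca1 in CD8 T cells was 0.10. Without the filter on low counts, Abcg1 in neutrophils was 0.05.

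With 1 library left out, the signs that turned belonged to log2 fold changes with the following ranges. In macrophages, Abcg1 -0.22 to 0.21, Cd36 -0.24 to 0.64, Fabp4 -0.23 to 0.72, Fabp5 -0.56 to 0.20, Lpl -0.52 to 0.65, Plin2 -0.09 to 0.33, Trem2 -0.05 to 0.16. In monocytes, Abca1 -0.004 to 0.58, Cd36 -0.25 to 0.34, Fabp4 -0.46 to 0.36, Plin2 -0.16 to 0.42. In neutrophils, Abca1 -0.16 to 0.30, Abcg1 -0.10 to 0.08, Msr1 -0.77 to 0.73, Plin2 -1.06 to 0.56. In conventional dendritic cells, Apoe -0.85 to 1.13, Cd36 -0.37 to 0.02, Fabp5 -0.58 to 0.01, Lpl -0.43 to 0.83, Msr1 -0.65 to 0.50, Plin2 -0.28 to 0.08. In CD8 T cells, Abca1 -0.99 to 0.53, Abcg1 -0.02 to 0.24, Fabp4 -0.48 to 6.01, Fabp5 -0.41 to 0.16, Msr1 -0.20 to 0.04, Plin2 -0.20 to 0.24, Trem2 -0.47 to 0.09. In NK cells, Plin2 -0.13 to 0.69, Trem2 -0.23 to 1.22. The Fabp4 value in CD8 T cells at the upper end comes from few UMIs.

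The highest class of each gene was the same for 8 of 10 genes after thinning, Lpl and Fabp4 excepted, and for 7 of 10 with clusters, which had no class of fibroblasts or migratory dendritic cells. Precision is limited by 2 libraries a group, by the 92 neutrophils of control 1 and by classes of under 100 cells.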

Other observations

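The signs of the listed lipid genes beyond the 10 are given here by group as counts, beside 49.4% positive over all genes in macrophages; differences between the groups were not tested. Of the nuclear receptors and genes of sterol control, 14 of 16 tested had a positive log2 fold change and 5 had an unadjusted p under 0.05, with a median of 0.15 beside -0.0035 over all genes. Of the scavenger and lipoprotein receptors, 7 of 12 were positive, and Axl was among those called. Of the genes of lipolysis and lysosomal hydrolysis, 3 of 11 were positive, and of those of fatty acid oxidation 4 of 10; edgeR called 0 of either, with 0 at an unadjusted p under 0.05. The lipid-associated macrophage genes, which name a lipid-laden state in other tissues, were positive for 6 of 12, with 0 called, 1 at an unadjusted p under 0.05 and a median of 0.0014. Spp1, the member of that list with the largest change, was at 710.5 and 609.6 CPM in the liproxstatin libraries against 628 and 946 CPM in the control libraries (-0.21 ± 0.20, edgeR adjusted p = 0.694), and the groups overlapped.

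In neutrophils, with 92 cells in control 1, 20 of 57 listed genes were positive, beside 48.2% of all genes, with 0 called and a median of -0.17 beside -0.0144 over all genes. Spp1 was at 957 and 589 CPM in the liproxstatin libraries against 1017 and 1870.0 CPM in the control libraries (-0.91 ± 0.30, edgeR adjusted p = 0.352), lower in both, as was Cd68 at 149 and 162 CPM in the liproxstatin libraries against 208 and 259.8 CPM in the control libraries (-0.63 ± 0.22, adjusted p = 0.385). Spp1 was highest in control 2 in macrophages, CD8 T cells and NK cells too, but not in monocytes. In CD8 T cells it was at 779 and 729 CPM in the liproxstatin libraries against 759 and 1261 CPM in the control libraries. Each of these levels was above that of macrophages in the same library. The part of free RNA in the Spp1 values of any class was not tested.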
